A study of Sus scrofa with 2 samples.

Results

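The vessels of the stria vascularis (SV), the secretory tissue on the lateral wall of the cochlea, were followed through 10 genes of capillary endothelium and pericytes: DARC, PECAM1, CDH5, VWF, KDR, FLT1, TEK, TIE1, CLDN5 and RGS5. DARC is the name in the deposited table for ACKR1. The genes were taken by name, and were matched by the gene symbol of the table or, for TIE1, which the table spells TIE-1, by the Ensembl name of its identifier. Of the 10 genes, 9 were found among 27622 features, each as 1 feature, and all 9 could be compared, being above 0 in both libraries and at 1 RPKM or more in one or both. RPKM is the number of reads on a gene, scaled to the length of its exons and to the mapped reads of the library. The lowest exon lengths that fit the values ran from 657 bases for CLDN5 to 3491 bases for FLT1, as worked out from the values themselves. Positions in the genome are not used here. CDH5, the cadherin of endothelial junctions, was not matched and is not analysed here.

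Gene expression was compared between Mitf R/r (heterozygous) and Mitf r/r SV, called R/r and r/r below, with 1 RNA-seq library per genotype. Both are Rongchang pigs of the study, and the r allele, which the R/r control also carries, has natural short insertions upstream of the M exon of MITF, which starts the melanocyte transcript. The albino, deaf pigs of this breed are r/r, and the study also found hearing loss in some R/r pigs. The sample labels give the age of both samples as postnatal day 1, whereas the study's text places the assay at an embryonic stage, and neither states how many animals went into a library. The SV was taken with or from the lateral wall of the cochlea, so that spiral ligament, blood and other cells may be present. Because each genotype is a single library, no gene could be tested: what is compared is a pair of libraries, and differences between animals, dissections and genotypes cannot be told apart.

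The SV is an epithelium with capillaries running inside it. Their endothelial cells are sealed by tight junctions and are accompanied by pericytes and by resident macrophages, which together form the blood-labyrinth barrier. Endothelial cells are kept by vascular endothelial growth factor, which signals through KDR and FLT1, and by the angiopoietins, which signal through TEK, with TIE1 as its partner. PECAM1 and CDH5 hold neighbouring cells together, CLDN5 seals the tight junction, and VWF is the clotting glycoprotein stored by endothelium and platelets. DARC, the Duffy antigen, binds chemokines without signalling through G proteins, and is known from venules and red cells. RGS5, a regulator of G-protein signalling, is a widely used pericyte marker.

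The reads behind the RPKM values were worked out from the steps between low values, which gave 15829244 mapped reads for R/r and 14258672 for r/r. For a gene 1 kb long, each read added 0.0632 RPKM in R/r and 0.0701 RPKM in r/r. Intervals below are exact 95% intervals on these reads, of Poisson type for a level and of Clopper-Pearson type for a log2 ratio (r/r over R/r, no pseudocount). They cover counting error only. The genotype labels were checked on DCT, a melanin enzyme with 171 RPKM in R/r and 1.19 RPKM in r/r, and on the 3 features of MITF, whose log2 ratios lay between -0.51 and -0.45. In whole tissue, fewer cells of a type and less RNA per cell cannot be told apart.

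The endothelial genes other than DARC, and RGS5, were within 2-fold in both SVs, VWF being the farthest apart at 1.66-fold lower in r/r, whereas DARC had 3 reads left in the r/r SV. DARC had 5.71 RPKM (95% interval 4.64 to 6.94) in R/r, from 100 reads. In the r/r SV it had 0.190 RPKM (0.0392 to 0.555), from 3 reads. Its level was thus 30.03-fold higher in R/r (counting interval 9.98 to 148), and its log2 ratio was -4.91 (-7.21 to -3.32). DARC was the 1 member of 9 at least 2-fold apart, a difference that 3.99% of the 16331 features compared had in either direction, 2.20% of them lower and 1.78% higher in r/r. Its interval also lay wholly beyond 2-fold, as it did on the lower side for 0.355% of all features compared.

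**Figure D1:**
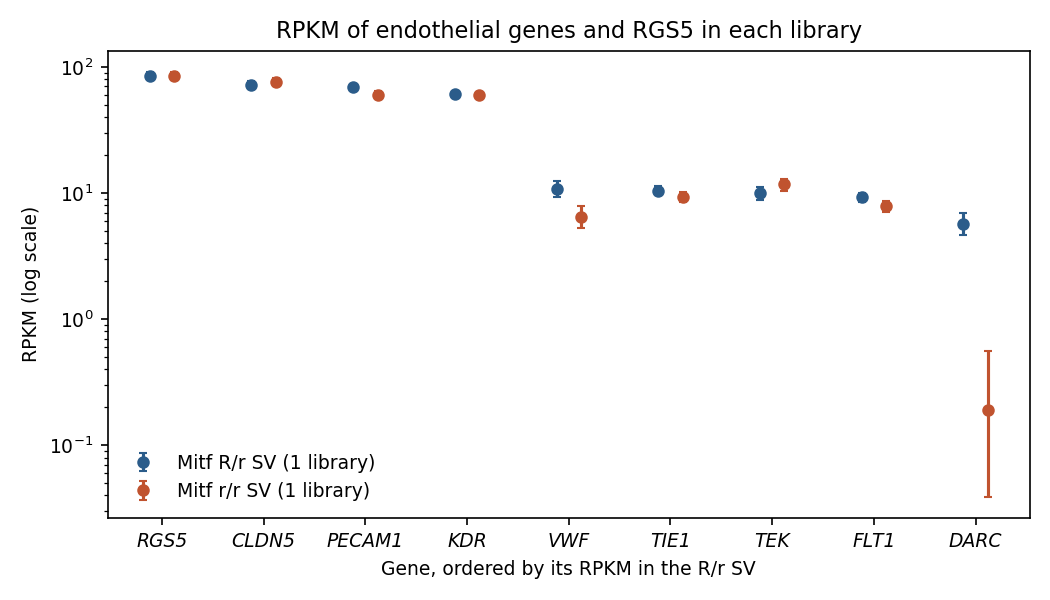
RPKM values (log scale) of the 9 genes in R/r (blue) and r/r (orange), 1 library each; bars are exact 95% Poisson intervals on the reads. The points of 8 genes lie within 2-fold between libraries, VWF the farthest apart of these, and DARC goes from 5.71 to 0.190 RPKM.

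Of the 16331 features compared, all above 0 in both libraries, 8 had a lower ratio than DARC, and all 8 had at least as many reads. They were TRPM1, TMP-SLA-5, DCT, KCNJ13, TYR, RAB38, SLC45A2 and PMEL. Of these, TRPM1, DCT, TYR, RAB38, SLC45A2 and PMEL are known from pigment cells, TMP-SLA-5 is a histocompatibility (SLA) gene and KCNJ13 is a potassium channel. PMEL, the fibril protein of the melanosome, was nearest to DARC with a log2 ratio of -4.92, from 235 and 7 reads. This ranking leaves out features at 0 in a library, which have no ratio. At 1 RPKM or more in the other library, these were 49 features at 0 in r/r and 36 at 0 in R/r. The level of DARC was the lowest among the 9 vessel genes in both libraries.

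DARC stood apart from every other endothelial member. The 7 others together had 5498 reads in R/r and 4704 reads in r/r, a log2 ratio of -0.07 (-0.13 to -0.02). The log2 ratio of DARC minus that of this sum was -4.83 (95% conditional exact interval -7.14 to -3.24). Reads of DARC came to 1.82% of the reads of the 7 genes in R/r and to 0.0638% in r/r. Taken 1 gene at a time, the difference ran from -5.14 against TEK to -4.18 against VWF, and the interval nearest to no difference was the one against VWF, -6.51 to -2.53. Against RGS5 it was -4.91 (-7.22 to -3.31).

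CADM3, a nerve cell adhesion molecule, is the gene next to DARC in the pig RefSeq annotation (assembly Sscrofa11.1, used for gene order only). It had 20.6 RPKM in R/r and 2.53 RPKM in r/r, from 561 and 62 reads, a log2 ratio of -3.03 (-3.43 to -2.65). Both neighbours were at least 2-fold lower in r/r, and the ratio of DARC minus that of CADM3 was -1.88 (-4.22 to -0.22). The genes on the other side of DARC were not matched in the table. In the RefSeq annotation no gene overlaps DARC, and the strands of the pair were not looked up. The counting is not stated to use strand, so that reads of any transcripts on opposite strands could not be separated. Whether the pair shares reads was not tested.

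**Figure D2:**
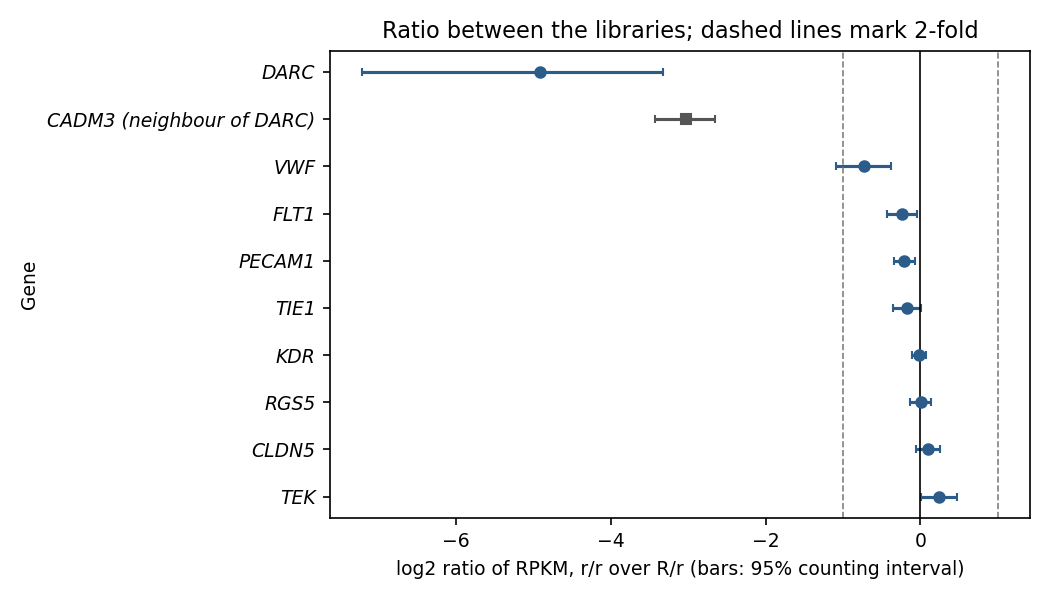
The log2 ratio of RPKM, r/r over R/r, of the 9 genes and of CADM3 (grey square), with exact 95% counting intervals; dashed lines mark 2-fold. DARC and CADM3 lie beyond 2-fold on the lower side, at -4.91 and -3.03, and the other genes lie between -0.73 and 0.24.

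DARC is also a protein of red cells, and some but not all pigment and Schwann cell genes were at least 2-fold lower in r/r, so the levels of these lists are given here. Of 14 red cell genes found, 6 were compared, and their log2 ratios lay between -0.39 and -0.08 with a median of -0.26. None of the 6 was 2-fold apart, beside 3.99% of all features compared. Haemoglobin HBB had 1655 RPKM in R/r and 1393 RPKM in r/r. SLC4A1, the band 3 anion exchanger of the red cell membrane, was below 1 RPKM in both and gave 45 and 14 reads, a log2 ratio of -1.53 (-2.51 to -0.64). AHSP, the chaperone of alpha globin, had the highest ratio, -0.08. HBZ was listed at 0 in R/r, and CA1 in both. Summed over the list, RPKM values were 3055 in R/r and 2467 in r/r. The share of red cells in the DARC result was not tested.

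Several pigment cell genes had ratios near or below that of DARC. Of the 10 melanocyte genes, 8 were compared, and the median log2 ratio was -5.01. At least 2-fold lower were 5 of them (TRPM1, DCT, TYR, SLC45A2 and PMEL), beside 2.20% of all features compared. MLANA, a melanosome protein, had 12.03 RPKM in R/r and 0 in r/r. Its reads in R/r could not be settled. The lowest count that fits is 8 reads, but at a length of 42 bases, shorter than a read, so the true count may be much larger. KIT, the receptor of stem cell factor, had the highest ratio of this list, 0.02. The summed RPKM of the list was 361 in R/r and 89.2 in r/r. Of the 17 Schwann cell and nerve genes found, 9 were compared, with a median of -0.41. At least 2-fold lower were 3 of these, among them CADM3 and LGI4, a ligand for Schwann cells (log2 ratio -1.73). Over all features compared this share was 2.20%. S100B had 6091 and 6272 RPKM, and made up most of the summed 6231 and 6349 RPKM. NEFL, a neurofilament, was higher at 3.70 but from 3 and 35 reads and under 1 RPKM. Of the defining Schwann cell markers, ERBB3 had 0 reads in both, and CDH19 had 32 reads in R/r and 0 in r/r. ERBB3, CDH19, HBZ, CA1 and MLANA were named as markers, outside the rule for named genes. The cells that carry DARC in this tissue were not identified, and the part of these cell types in its ratio was not tested.

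The junction genes were among the most highly expressed members. PECAM1 had 69.1 RPKM (65.1 to 73.4) in R/r and 59.9 RPKM (56.0 to 64.1) in r/r, from 1089 and 850 reads, and its log2 ratio was -0.21 (-0.34 to -0.08). CLDN5 had 71.3 RPKM (66.3 to 76.7) and 76.3 RPKM (70.8 to 82.1), a ratio of 0.10 (-0.05 to 0.25). PECAM1 was thus somewhat lower in r/r beyond counting error, and CLDN5 was not distinguishable. Their ratios differed by -0.30 (-0.50 to -0.10).

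Of the growth factor receptors, KDR was the highest and the most even. KDR, the main receptor of VEGFA, had 60.6 RPKM (58.1 to 63.3) in R/r and 60.04 RPKM (57.3 to 62.8) in r/r, from 2100 and 1873 reads. Its log2 ratio of -0.01 (-0.10 to 0.08) had the narrowest interval of the 9 genes. FLT1, the receptor that also acts as a trap for VEGFA, had 9.23 RPKM (8.45 to 10.1) and 7.81 RPKM (7.06 to 8.63), a log2 ratio of -0.24 (-0.43 to -0.05). The ratio of KDR exceeded that of FLT1 by 0.23 (0.01 to 0.44).

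The ratios of the angiopoietin receptors lay on opposite sides of 0. TEK had 9.92 RPKM (8.84 to 11.1) in R/r and 11.7 RPKM (10.5 to 13.0) in r/r, for which the log2 ratio came to 0.24 (0.01 to 0.47). TEK was the 1 member with an interval above 0, as 11.2% of all features compared had. The lower end of its interval, 0.008, is smaller in size than the shift of -0.04 from rescaling to TPM, so that this call depends on the scaling. TIE1 had 10.5 RPKM (9.61 to 11.4) and 9.29 RPKM (8.44 to 10.19), a ratio of -0.17 (-0.36 to 0.01), which spans 0. The difference between their ratios was 0.41 (0.11 to 0.70).

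VWF had the lowest ratio after DARC. It had 10.7 RPKM (9.28 to 12.4) in R/r and 6.49 RPKM (5.31 to 7.85) in r/r, from 193 and 105 reads. Its log2 ratio of -0.73 (-1.08 to -0.38) was short of 2-fold, and 4.30% of all features compared had a lower ratio. VWF lay below each of the 7 members other than DARC, with counting intervals of the difference that did not reach 0. Over the 28 pairs of members without DARC, 18 such intervals did not hold 0. These intervals were not adjusted for the number of pairs. The lowest exon length that fits the VWF values was 1135 bases, and the true length may be a multiple. If it is 1135 bases, shorter than the full transcript, the values rest on a part of the gene.

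VWF is also a platelet protein. Of 9 platelet genes found, 3 were compared, with log2 ratios from -0.98 to -0.03 and a median of -0.34. ITGA2B, the platelet fibrinogen receptor chain, was lowest at -0.98 (-1.48 to -0.50), with 3.76 and 1.90 RPKM. Its partner ITGB3, which endothelial and other cells also carry, had 9.15 and 8.94 RPKM. PF4, PPBP and TREML1 were at 0 in both SVs. The summed RPKM of the list was 16.6 in R/r and 13.7 in r/r, and a platelet share in the VWF values was not tested.

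RGS5 had the highest RPKM of the 9 genes in both libraries and the ratio closest to 0. It had 84.9 RPKM (79.5 to 90.6) in R/r and 85.0 RPKM (79.3 to 91.0) in r/r. Its log2 ratio was 0.00 (-0.14 to 0.14), from 917 and 827 reads.

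By level, the 9 genes fell into a group at 59.9 RPKM or more (RGS5, CLDN5, PECAM1 and KDR), a group near 10 RPKM (VWF, TIE1, TEK and FLT1) and DARC below these. In the R/r SV the counting intervals of CLDN5 and PECAM1 overlapped, as did those of each gene with the next in the row VWF, TIE1, TEK and FLT1. In the r/r SV, RGS5 overlapped with CLDN5, KDR with PECAM1, TIE1 with FLT1, and FLT1 with VWF, while TEK lay above TIE1. Both orders are of RPKM values, which are scaled to gene length. The median log2 ratio of the 9 genes was -0.17, beside -0.02 over all features compared. The interval lay below 0 in 4 genes (DARC, VWF, FLT1 and PECAM1), as it did in 14.5% of all features compared. Such a call depends on the reads of a gene, and 7 of the 9 genes, all but DARC and VWF, had more reads than the median feature compared, which had 449.

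**Figure D3:**
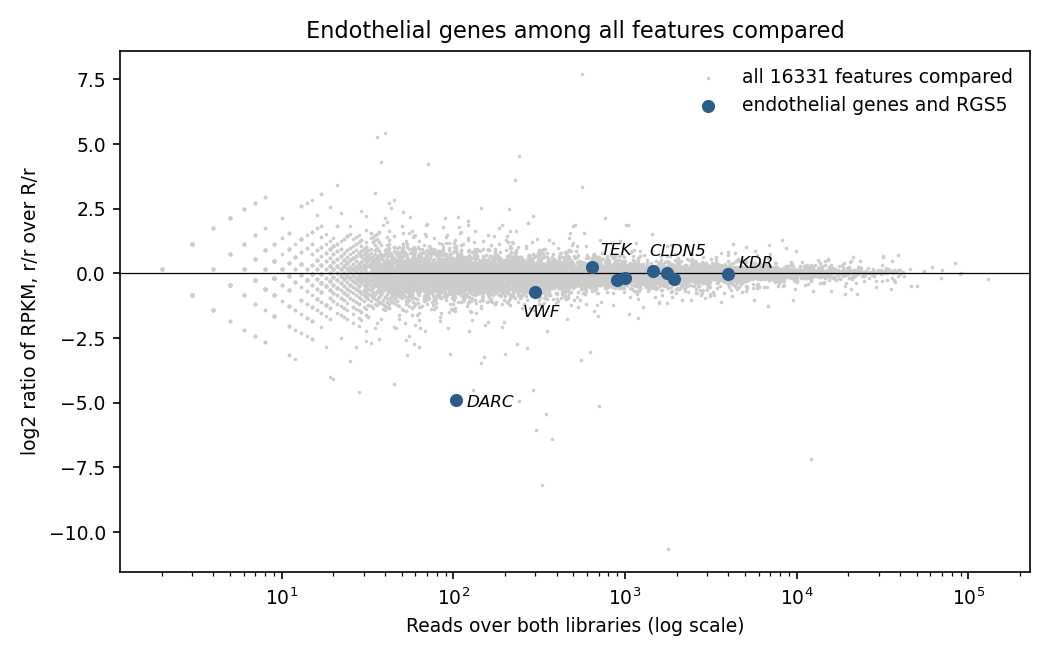
The log2 ratio of RPKM, r/r over R/r, against the reads over both libraries (log scale) for all 16331 features compared (grey) and the 9 genes (blue). DARC, with 103 reads, lies far below the cloud at -4.91, and the other genes lie within it.

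The other genes of the vessel wall were read from lists of markers. The list of general endothelial genes had 34 genes found and 32 compared, with a median log2 ratio of -0.10. None of those compared was at least 2-fold apart, beside 3.99% of all features compared, and the ratios ran from -0.50 to 0.75. The interval lay below 0 in 7 genes and above 0 in 3 of the 32, beside 14.5% and 11.2% of all features compared. RAMP2, the partner of the adrenomedullin receptor, had the highest level, with 111 RPKM in R/r and 78.3 RPKM in r/r (-0.50, interval -0.63 to -0.37). SOX7, an endothelial transcription factor, had the lowest ratio, -0.50 (-1.06 to 0.04). MMRN1, a multimerin stored by endothelium and platelets, had the highest, 1.41 (0.68 to 2.18), but was under 1 RPKM, with 23 and 55 reads, and so was not among the genes compared.

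The ligands and coreceptors of the receptors above that were compared lay within 2-fold. Of 14 genes of the VEGF and angiopoietin list found, 12 were compared, with a median of -0.10. Of these, 0 were 2-fold apart, beside 3.99% of all features compared. VEGFA, the ligand of KDR and FLT1, had 13.4 RPKM in R/r and 11.4 RPKM in r/r (-0.22, interval -0.44 to -0.01). CXCL12, a chemokine, was highest with 269 and 252 RPKM. NRP1, a coreceptor of KDR, was higher in r/r by 0.15 (0.08 to 0.22), and NRP2 was at -0.36 (-0.62 to -0.09). ANGPT2, the angiopoietin that loosens vessels, had the lowest ratio, -0.48 (-1.05 to 0.06), at 0.793 and 0.566 RPKM. APLN, the ligand apelin, had the highest, 0.52 (-0.46 to 1.53), from 17 and 22 reads. NRP1, NRP2 and VEGFA were named after their values were seen.

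Genes known from venules and activated endothelium had a median above 0. Of 20 genes found, 15 were compared, and the median log2 ratio was 0.15. The interval lay above 0 in 4 genes (VCAM1, NR2F2, SELP and ACKR2) and below 0 in 1 (EPHB4), of 15, beside 11.2% above and 14.5% below over all features compared. VCAM1, which binds leukocytes, had the highest level, with 81.2 RPKM in R/r and 119 RPKM in r/r, a log2 ratio of 0.55 (0.47 to 0.64). NR2F2, the transcription factor of vein identity, had 33.2 and 38.5 RPKM (0.21, interval 0.12 to 0.30). SELP, the selectin stored with VWF, had 0.9902 and 1.80 RPKM from 30 and 49 reads (0.86, interval 0.17 to 1.56). SELE was under 1 RPKM, with 4 and 12 reads. CXCL10, a chemokine, had the lowest ratio, -0.78 (-1.98 to 0.34). NR2F2, SELP, SELE and EPHB4 were named after their values were seen. VCAM1 and NR2F2 are also expressed by connective tissue cells, and the source of their reads was not tested.

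The relatives of DARC among the atypical chemokine receptors were few in reads, except ACKR3. ACKR2, which clears inflammatory chemokines, had 1.31 RPKM in R/r and 2.92 RPKM in r/r from 14 and 28 reads (log2 ratio 1.15, interval 0.18 to 2.19), and was the 1 gene of the list at least 2-fold apart. That count was 0 with a pseudocount of 1 RPKM. ACKR3, the receptor that takes up CXCL12, had 25.0 and 23.6 RPKM (-0.08, interval -0.29 to 0.12). ACKR4 was under 1 RPKM, with 8 and 9 reads. CCRL2, a related receptor, had a ratio of -0.50 (-2.11 to 0.997), from 11 and 7 reads. Of the chemokines that DARC binds, CCL2 had 7.12 and 7.37 RPKM, a ratio of 0.05 (-0.40 to 0.50). CXCL8 had 2 reads and 1 read, and CXCL2 had 1 read in each library, too few for a difference to be detectable.

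For arterial genes the median log2 ratio was -0.27, with all 12 found compared. The interval lay below 0 in 5 genes and above 0 in none, beside 14.5% and 11.2% of all features compared. GJA5, the connexin 40 of arterial gap junctions, had 4.23 RPKM in R/r and 2.09 RPKM in r/r, which put its log2 ratio at -1.02 (-1.38 to -0.67), from 218 and 97 reads. GJA5 was the 1 gene of this list at least 2-fold apart, a call lost when the libraries were scaled to the same median or upper quartile, or with a pseudocount of 0.1 RPKM, where the count was 0. The other 4 were SEMA3G, a semaphorin (-0.75), DLL4, the Notch ligand of arterial endothelium (-0.60), its target HEY1 (-0.48) and the receptor NOTCH4 (-0.44), named after their values were seen. HEY2, another Notch target, had the highest level and ratio, with 45.3 and 49.3 RPKM (0.12, interval -0.01 to 0.26).

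**Figure D4:**
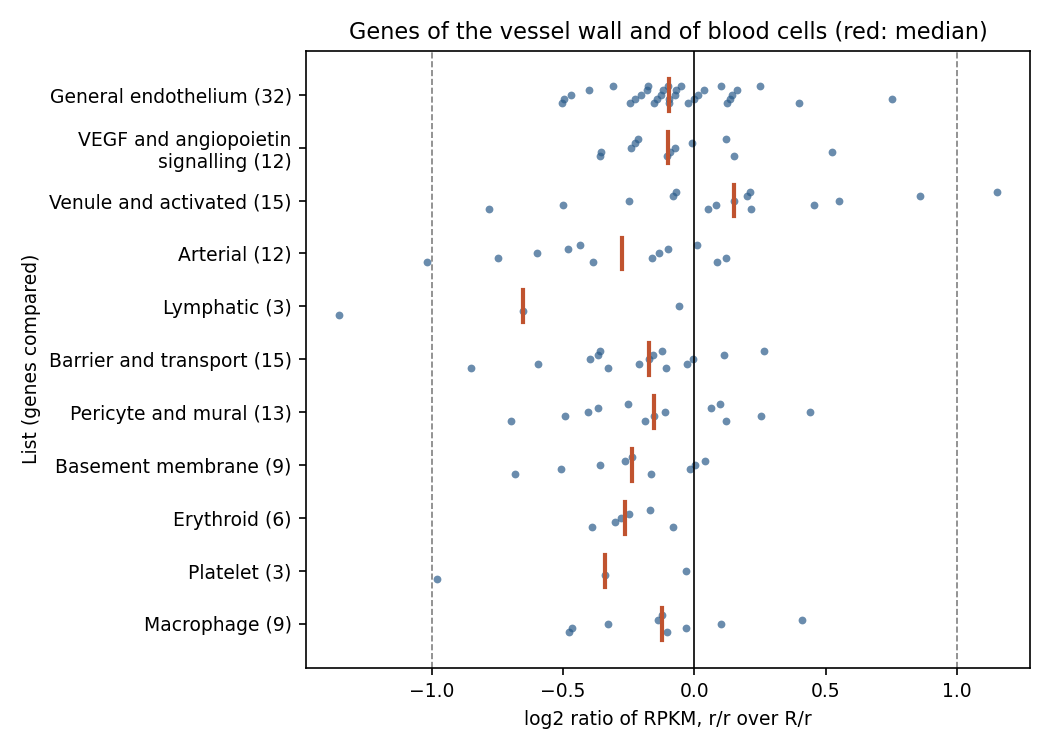
The log2 ratio of RPKM, r/r over R/r, of each gene compared (blue points) in lists of vessel wall genes and blood cells, with the median of the list (red bar); dashed lines mark 2-fold. The median is above 0 in the venule list (0.15) and below 0 in the other lists shown, and 3 genes lie beyond a dashed line.

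Lymphatic genes gave little to compare, with 3 of 5 above the minimum. LYVE1 and FLT4 were under 1 RPKM in both SVs. CCL21, the chemokine of lymphatic endothelium, had 17 and 6 reads, with a log2 ratio at -1.35 (-2.98 to 0.06) that spans 0, and was the 1 gene at least 2-fold apart, a count that was 0 with a pseudocount of 1 RPKM. PROX1, the transcription factor of lymphatic identity, had 1.65 and 1.05 RPKM (-0.65, interval -1.20 to -0.12), and was the 1 gene with an interval below 0. PDPN, also made by connective tissue, had 73.9 and 70.9 RPKM. The median of the 3 genes was -0.65.

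Of the barrier and transport list, all 15 genes found were compared, with a median of -0.17. None was at least 2-fold apart, beside 3.99% of all features compared. There were 6 intervals below 0 and 1 above, beside 14.5% and 11.2% of all features. TFRC, the transferrin receptor, had the highest level and ratio, with 79.5 RPKM in R/r and 95.4 RPKM in r/r (0.26, interval 0.19 to 0.33). CA4, the carbonic anhydrase of capillary surfaces, had the lowest ratio, -0.85 (-2.04 to 0.26), from 22 and 11 reads. SLC2A1, ABCB1, PLVAP and AQP1 were among 7 listed names that were not matched and are not analysed here.

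The pericyte and mural list had 17 genes found and 13 compared, with a median of -0.15. It had 0 genes 2-fold apart, beside 3.99% of all features compared. PDGFRB, the receptor that draws pericytes to vessels, had 71.3 RPKM in R/r and 65.9 RPKM in r/r (-0.11, interval -0.19 to -0.04). CSPG4 (NG2), another defining pericyte marker, was under 1 RPKM in both, at 0.513 and 0.409 RPKM, and the smooth muscle genes MYH11, CNN1 and DES were under 1 RPKM too. TBX18, expressed in pericytes and in the mesenchyme of the lateral wall, was highest with 172 and 205 RPKM (0.25, interval 0.22 to 0.29). TAGLN, an actin-binding protein, had the highest ratio, 0.44 (0.18 to 0.70). NDUFA4L2, a mitochondrial protein of pericytes, had the lowest, -0.70 (-1.71 to 0.26). The summed RPKM of the list was 386 in R/r and 405 in r/r. The log2 ratio of the summed reads was 0.12, of the other sign than the median, and TBX18 held most of these reads. PDGFRB, CSPG4, MYH11, CNN1 and DES were named as markers, outside the rule for named genes.

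Of the basement membrane list, 9 genes were compared, with a median of -0.24 and 0 genes 2-fold apart, beside 3.99% of all features compared. The interval was below 0 in 6 and above 0 in none, beside 14.5% and 11.2% of all features, and such calls depend on the reads, of which this list has many (65437 and 45870 summed). SPARC had 1611 RPKM in R/r and 1134 RPKM in r/r (-0.51, interval -0.53 to -0.48). It is also a bone matrix protein. NID1, which links laminin to collagen IV, had the lowest ratio, -0.68 (-0.77 to -0.60), and LAMA4, the endothelial laminin chain, had the highest, 0.04 (-0.06 to 0.14). These genes are made by many cells of the lateral wall, and the share of vessels in them was not tested.

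Macrophage genes, which in the SV also mark perivascular cells, lay within 2-fold where compared. Of 10 found, 9 were compared, with a median of -0.12 and 0 genes 2-fold apart, beside 3.99% of all features compared. C1QC, a complement chain, was highest with 21.6 RPKM in R/r and 20.03 RPKM in r/r. CX3CR1, the fractalkine receptor, had the lowest ratio, -0.48 (-0.88 to -0.08), and MRC1, the mannose receptor, had the highest, 0.41 (-0.04 to 0.87). The summed RPKM of the list was 84.4 in R/r and 77.5 in r/r.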

How the data were processed

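RNA-seq of the lateral wall with its SV was available for 1 library per genotype. The authors deposited RPKM values per gene, made from paired-end reads that passed quality control and were mapped with TopHat (version 2.0.7) on the Sscrofa10.2 build. The counting program and annotation are not given in the sources used here. The values were used as deposited. Another 2 columns without headings, with differences and ratios for 22 features, were not used.

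The members and lists were chosen with earlier results of these data known. A feature was compared when above 0 in both libraries with at least 1 RPKM in one or both. The call was 2-fold alone, which is the fold the study uses. The study's list of differing genes also gives a p value for each, and no p value was used here. CADM3 is on that list and DARC is not. Of several features under a symbol, that of highest mean RPKM stood for the gene. Symbols of the table named 16376 features and an Ensembl name table a further 1794. No test was run. RefSeq (Sscrofa11.1) gave gene order only, and no sequences were at hand for these genes.

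Recovery of reads was added once the values were known. Low values most often differed by a ratio of 1.11 (291 of 3016 genes), taken as that of the library totals, and the largest totals that made gene lengths whole (within 0.001 bases) for at least 60% of 3000 genes were taken; they did so for 69.0%. Each gene was given the lowest reads that fit both values and a whole length. The true reads may be a multiple, which would make the intervals wider than needed. Whether both mates of a pair were counted is not stated. If they were, the reads are not independent and the intervals would be too narrow. These steps were also run on simulated reads, drawn independently at the lengths and totals found here. That run cannot show whether the true reads are a multiple, or whether both mates were counted. Genes named from a list are those with the highest RPKM, the lowest and highest ratio among members with at least 20 reads, and any member at least 2-fold apart; exceptions are stated, and some listed genes are not reported here. With 2 libraries no likeness of pattern across samples can be measured. Alternatives were pseudocounts, minimum RPKM values, scalings, fold thresholds and other sums. The work used scipy 1.17.1, numpy 2.4.6 and pandas 2.3.3 in Python 3.11.15, with plots from matplotlib 3.10.9.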

Additional observations from a re-analysis of the deposited data

How the results depend on the processing

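No paired analysis was possible because each genotype had a single library, and no replicate could be left out. With a pseudocount of 1 RPKM, the difference between DARC and the other endothelial genes was -2.42 in place of -4.83 and the log2 ratio of DARC was -2.49 in place of -4.91, because the added value exceeds the level of DARC in the r/r SV; over the other settings of the difference it ran down to -4.86. The number of members at least 2-fold apart, 1, became 2 at 1.5-fold, with VWF added. The melanocyte median of -5.01 was -3.45 with a pseudocount of 1 RPKM, and the lymphatic median of -0.65 was -0.059 with a minimum of 5 RPKM, where 1 gene was left.

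Of 72 alternative log2 ratios of single members, 71 stayed within their counting interval, and 3 had the other sign, for KDR and RGS5, both near 0. The median of the 9 genes ran from -0.21 to -0.13 over 8 settings. Of 104 alternative list medians, 0 changed sign. Counts of 2-fold genes in a list, of 0 to 5 genes, moved by over 1.5 times in 22 of 117 cases; the arterial count of 1 became 0 in 5 settings and 3 at 1.5-fold, and the venule count of 1 became 3 at 1.5-fold, 2 with no minimum and 0 with a pseudocount of 1 RPKM or a minimum of 5 RPKM. Scaling by the median, the upper quartile or TPM shifted all ratios by 0.04, 0.02 and -0.04. Depth limits DARC in the r/r SV, where 3 reads were found, and low genes such as SELE, CCL21 and the chemokines.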

Other observations

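Genes next to the other members were looked up in the RefSeq order. Over all features compared, 3.99% were at least 2-fold apart. Of the nearest protein-coding neighbours matched in the table and above 1 RPKM, none was at least 2-fold apart among those compared. Of the others, 3 under 1 RPKM were 2-fold apart, each from few reads: ANO2 beside VWF had 2 and 5 reads, FLT3 near FLT1 had 1 and 2 reads, and LRRC19 near TEK had 1 and 4 reads, in the R/r and r/r SV. An unnamed locus overlaps TEK and another overlaps PECAM1 in that annotation, and neither was matched in the table.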
